A study of Mus musculus with 6 samples.

Results

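Regulators of G protein signalling (RGS) were followed through 10 genes, Rgs2, Rgs3, Rgs4, Rgs5, Rgs7, Rgs8, Rgs10, Rgs16, Rgs17 and Rgs20, out of 18193 genes on an Affymetrix mouse array. The array reads each transcript with sets of short oligonucleotides, and all 26 probe sets annotated to exactly 1 of these genes were taken, among 45037 tested. RNA came from 6 samples of NSP cells (the labels do not spell the name out), grown from mouse brains dissected at E12.5, mid-gestation, on coated dishes and split before infection. In 3 samples, numbered 1 to 3, a lentivirus delivered a short hairpin RNA (shRNA) against REST, and in the other 3, also numbered 1 to 3, it delivered a control shRNA. Arrays of the same number are called a pair. All 6 were infected overnight and collected after 6 days, so both groups had been exposed to virus. The labels name no strain, hairpin sequence or sorting step and do not say whether samples of one group came from separate embryos. The family was singled out because a higher Rgs4 signal with REST shRNA had been seen in these same arrays, and the question was whether its paralogs shared that difference. The contrast therefore chose the genes, and the differences below are given as descriptions without a test.

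RGS proteins switch off signals from G protein-coupled receptors. Their RGS domain binds the active alpha subunit of the G protein and speeds up its hydrolysis of GTP, which ends signalling to adenylyl cyclase, phospholipase C and potassium channels. The family falls into subfamilies by sequence: Rgs2, Rgs3, Rgs4, Rgs5, Rgs8 and Rgs16 belong to the small R4 group, Rgs7 to the R7 group that works as a complex with Gnb5, Rgs10 to the R12 group, and Rgs17 and Rgs20 to the RZ group. In brain, Rgs4, Rgs7 and Rgs8 are best known from neurons, Rgs5 from pericytes and Rgs10 from microglia. REST is a zinc finger repressor that holds neuronal genes down in other cells by binding the RE1 element.

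By the RefSeq table of GRCm38.p6, 7 of the 10 genes lie on chromosome 1, where Rgs4 and Rgs5 are neighbouring protein-coding genes and so are Rgs8 and Rgs16. The promoters of Rgs4, its neighbour Rgs5 and Rgs16 are shown because the first is the gene the question turns on, the second had the opposite sign on its brightest probe set, and the third varied by replicate number. Each window holds 300 bases from RefSeq, build GRCm38.p6, written 5′ to 3′ on the strand of the gene, with 250 bases before the start and 50 from it onward. Capitals mark matches to 4 short motifs on either strand, which are TTCAGCACC and GGACAG (the left and right parts of RE1), TGACG (the core of a cAMP response element) and TATAAA.
Rgs4, chr1:169747593-169747892, minus strand: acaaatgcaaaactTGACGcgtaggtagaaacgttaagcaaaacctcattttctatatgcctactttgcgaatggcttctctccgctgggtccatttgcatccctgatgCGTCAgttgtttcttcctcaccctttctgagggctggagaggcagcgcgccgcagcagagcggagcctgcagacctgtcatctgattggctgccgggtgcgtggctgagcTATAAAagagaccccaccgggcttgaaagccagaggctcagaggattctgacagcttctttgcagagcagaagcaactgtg
Rgs5, chr1:169655251-169655550, plus strand: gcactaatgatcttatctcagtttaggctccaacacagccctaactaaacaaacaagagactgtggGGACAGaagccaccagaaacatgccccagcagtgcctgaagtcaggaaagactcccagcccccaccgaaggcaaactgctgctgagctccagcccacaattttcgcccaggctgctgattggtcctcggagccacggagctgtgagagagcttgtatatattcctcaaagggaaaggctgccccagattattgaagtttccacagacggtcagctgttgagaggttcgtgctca
Rgs16, chr1:153740103-153740402, plus strand: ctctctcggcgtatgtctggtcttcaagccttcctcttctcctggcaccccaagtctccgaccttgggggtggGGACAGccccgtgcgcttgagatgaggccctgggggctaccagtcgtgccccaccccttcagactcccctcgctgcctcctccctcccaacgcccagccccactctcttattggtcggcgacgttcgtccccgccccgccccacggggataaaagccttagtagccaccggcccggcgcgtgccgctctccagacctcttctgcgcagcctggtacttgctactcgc

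The table held 12 such windows for 9 of the 10 genes, and none for Rgs20. The left part of RE1, TTCAGCACC, was in 0 of the 12 windows and in 0.371% of all 32851 windows, and both parts spaced by 2 bases were likewise in 0 of the 12 and in 0.0122% of all. The right part, GGACAG, was in 4 of the 12, those of Rgs5, Rgs7, Rgs8 and Rgs16, against 22.2% of all windows. The Rgs4 window had TATAAA on the strand of the gene with its first base 31 bases before the start, a motif found on either strand in 13.6% of all windows and also in 2 windows of Rgs3. It also had TGACG in both orientations, a motif found in 20.8% of windows, and Rgs2 and Rgs8 had it too. Such matches describe the letters of these short windows and show no binding.

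Values are log2 signals, so 1 unit is a 2-fold difference, and 3 arrays per group limit the precision of each. The 6 arrays shared nearly one distribution, with correlations between 0.955 and 0.993. Background was set at 3.24, the highest signal among 27 probe sets for bacterial transcripts. The targeted gene Rest was lower on all 4 of its probe sets, and the brightest read 8.63, 7.70 and 8.20 with REST shRNA (samples 1, 2 and 3), against 8.92, 8.75 and 8.90 with control shRNA. The groups did not overlap on any of the 4. In limma 0 of the 45037 probe sets had an adjusted p under 0.05, and 3.46% (1560) had an unadjusted p under 0.05. That second count was 2713 without REST shRNA array 1, 2780 without REST shRNA array 2 and 837 without control array 1.

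Among the 26 Rgs probe sets, 20 had a mean above the bacterial controls. Of the 26, 19 had a positive REST shRNA minus control shRNA difference and 7 a negative one, and 52.6% of all probe sets were positive. All 3 REST shRNA arrays lay above all 3 control arrays for 6 of them, of which Rgs3 had 3, Rgs4 had 2 and Rgs2 had 1. Over all probe sets 4.35% had that separation. The opposite order, with every REST shRNA array lower, was found for 0 of the 26, and for 3.9% of all probe sets. Adjusted p under 0.05 was reached by 0% of the table and by no member. By the brightest probe set of each gene, 8 of the 10 differences were positive, with a median of 0.33, beside a median of 0.04 and 57.2% positive over all genes. Since the contrast chose the family, nothing is read from these counts.

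**Figure D1:**
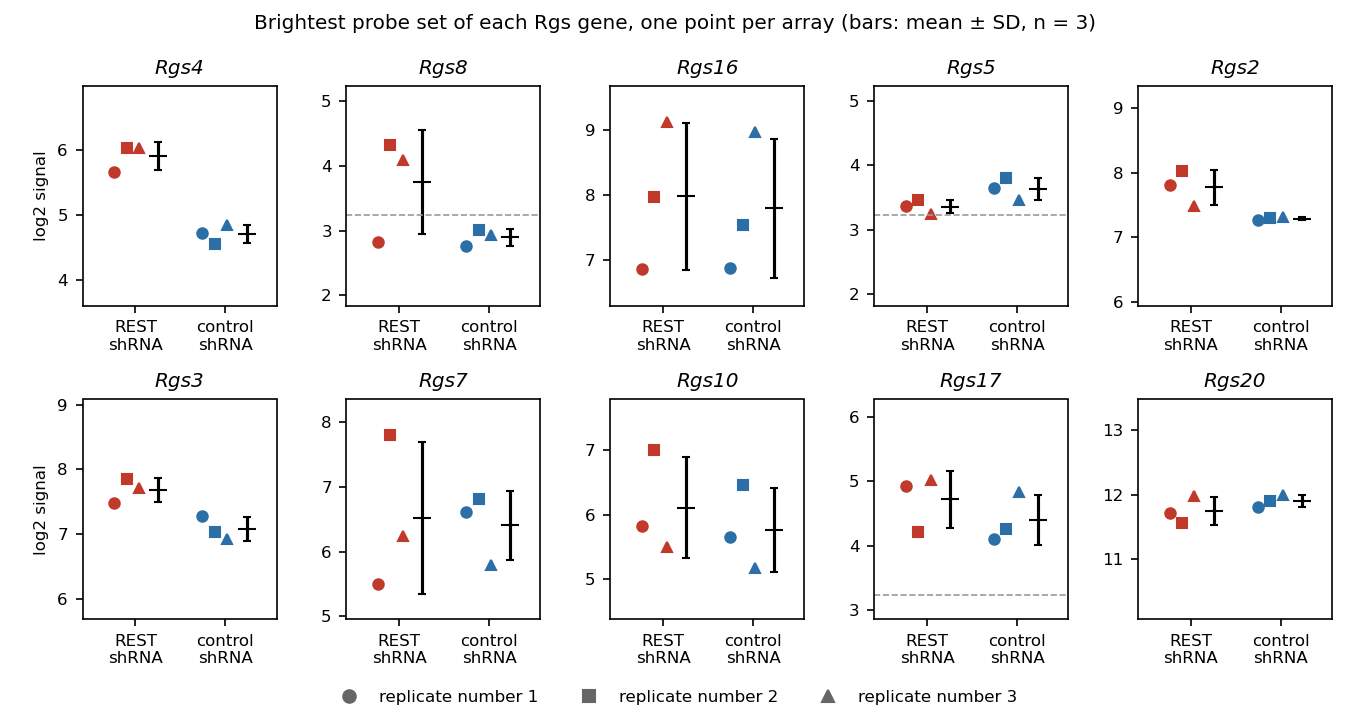
Log2 signal (vertical axis, each panel spanning the same range) of the brightest probe set of each Rgs gene in the REST shRNA arrays (red, left) and the control shRNA arrays (blue, right), 1 point per array, with the mean ± SD (n = 3) in black and the highest bacterial control at 3.24 as a dashed line. The groups stand apart for Rgs4, Rgs2 and Rgs3, while Rgs16 and Rgs10 vary mainly with the replicate number.

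Rgs4, which acts on the Gi and Gq classes of G protein and whose protein is kept short-lived by degradation through its N-terminus, was higher with REST shRNA on each of its 3 probe sets. The brightest, 1416286_at, read 5.66, 6.04 and 6.04 in REST shRNA samples 1, 2 and 3, against 4.72, 4.55 and 4.84 in the control samples. Every REST shRNA array was above every control array by a gap larger than the spread within either group. The mean was 5.92 ± 0.22 with REST shRNA and 4.70 ± 0.14 with control shRNA (SD, n = 3 each), a log2 difference of 1.21 ± 0.18 (SE, 95% interval 0.79 to 1.63) or 2.32-fold.

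A second probe set of Rgs4, 1416287_at, read 5.62, 5.18 and 5.52 with REST shRNA, against 4.43, 4.75 and 4.73 with control shRNA, a difference of 0.80 ± 0.19 (SE). The groups again did not overlap. The third, 1448285_at, lay around the bacterial controls, at 2.96, 3.51 and 3.55 with REST shRNA, against 2.86, 2.63 and 3.06 with control shRNA, where REST shRNA sample 1 fell within the control range. Its difference was 0.49 ± 0.22 (SE). The size thus varied by probe set, and it varied by replicate number in opposite orders: 0.94, 1.49 and 1.21 for numbers 1, 2 and 3 on the brightest probe set, but 1.18, 0.43 and 0.78 on the second. Averaged over its probe sets, Rgs4 differed by 0.83.

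The R4 paralogs nearest to Rgs4 in the size of their difference were Rgs8, Rgs3 and Rgs2. Rgs8, known from Purkinje cells and as a modulator of G protein-gated potassium channels, has 1 probe set, which read 2.83, 4.32 and 4.09 with REST shRNA, against 2.75, 3.01 and 2.92 with control shRNA. It was above the bacterial controls in REST shRNA samples 2 and 3 alone, and REST shRNA sample 1 lay inside the control range. The difference of 0.85 ± 0.38 (SE, 95% interval -0.06 to 1.76) thus came from 2 of the 3 pairs, and leaving REST shRNA array 1 out gave 1.31, and leaving array 2 of that group out gave 0.56.

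Rgs3 encodes several isoforms, of which a PDZ-containing one acts in ephrin-B signalling of neural progenitors. Its brightest probe set, 1425296_a_at, read 7.48, 7.85 and 7.72 with REST shRNA, against 7.28, 7.04 and 6.92 with control shRNA, a difference of 0.60 ± 0.18 (SE) or 1.52-fold. The groups did not overlap, and the gap between them was narrow. All 4 of its probe sets had a positive difference, at 0.60, 0.49, 0.46 and 0.31, and for 3 of the 4 the groups did not overlap. The dimmest, 1454026_a_at, read lower with REST shRNA in pair 1, by -0.38, and higher by 1.02 in pair 3.

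Rgs2, which acts mainly on the Gq class and is induced by many stimuli, differed in its values by probe set. The brightest, 1419247_at, read 7.82, 8.02 and 7.48 with REST shRNA, against 7.26, 7.29 and 7.31 with control shRNA, a difference of 0.49 ± 0.18 (SE) with no overlap. A pair of further probe sets above background had smaller differences, 0.22 ± 0.26 on 1419248_at and 0.16 ± 0.32 on 1447830_s_at, and on both REST shRNA sample 3 was the lowest of the 6 arrays. In pair 3 these 2 differed by -0.42 and -0.49, while the brightest differed by 0.17. The fourth, 1443250_at, was below the bacterial controls and differed by -0.15.

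Rgs5 and Rgs16 completed the R4 group, with differences near or below 0. Rgs5 was close to background throughout: the brightest of its 4 probe sets, 1420941_at, read 3.36, 3.46 and 3.25 with REST shRNA, against 3.64, 3.80 and 3.46 with control shRNA. That is a difference of -0.28 ± 0.16 (SE), lower in all 3 pairs, with REST shRNA sample 2 level with control sample 3. Its other 3 probe sets had means below the bacterial controls and differences of 0.51, 0.18 and -0.05, so Rgs5 has no settled sign here. Rgs16, a GTPase activator induced by growth factors and receptor signals, read 6.85, 7.97 and 9.13 with REST shRNA, against 6.87, 7.54 and 8.98 with control shRNA on 1451452_a_at. The difference was 0.18 ± 0.70 (SE), the other 2 probe sets differed by 0.01 and 0.11, and on all 3 the ranges of the groups overlapped widely. On the first it was -0.39 when REST shRNA array 3 was dropped and 0.78 when control array 3 was, which leaves number 3 in 1 group only. Without both arrays numbered 1, 2 or 3 it was 0.29, 0.06 and 0.20.

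Outside the R4 group, Rgs7 and Rgs10 had differences smaller than the SD of either group. Rgs7, a neuronal regulator of Gi and Go signalling, has 1 probe set, which read 5.50, 7.81 and 6.24 with REST shRNA, against 6.61, 6.81 and 5.80 with control shRNA. The lowest and the highest of these 6 values were both REST shRNA arrays, the 3 pairs differed by -1.10, 0.99 and 0.44, and the mean difference was 0.11 ± 0.58 (SE). Rgs10, also with 1 probe set, read 5.83, 7.00 and 5.50 with REST shRNA, against 5.66, 6.47 and 5.18 with control shRNA, a difference of 0.34 ± 0.47 (SE) that was positive in each pair. Leaving out 1 array moved both: Rgs10 was -0.10 when REST shRNA array 2 was dropped and 0.69 when control array 2 was. Rgs7 was -0.53 when REST shRNA array 2 was dropped and 0.62 when REST shRNA array 1 was. Dropping 1 array leaves its number in 1 group only, so a difference between numbers enters these values. Without both arrays numbered 1, 2 or 3, Rgs10 stayed positive, at 0.43, 0.25 and 0.35. Rgs7 was then 0.72, -0.33 and -0.05.

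The RZ genes act on Gz and related Gi proteins. The brighter Rgs17 probe set read 4.92, 4.21 and 5.02 with REST shRNA, against 4.11, 4.26 and 4.84 with control shRNA, a difference of 0.32 ± 0.29 (SE) made mostly in pair 1. Its other probe set lay under the bacterial controls in every array and differed by -0.09. Rgs20 read 11.72, 11.56 and 11.99 with REST shRNA, against 11.80, 11.90 and 11.99 with control shRNA on 1443694_at. Its 3 probe sets differed by -0.14, -0.15 and -0.07, and the 95% interval of the first, -0.55 to 0.26, does not reach the difference seen for Rgs4.

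**Figure D2:**
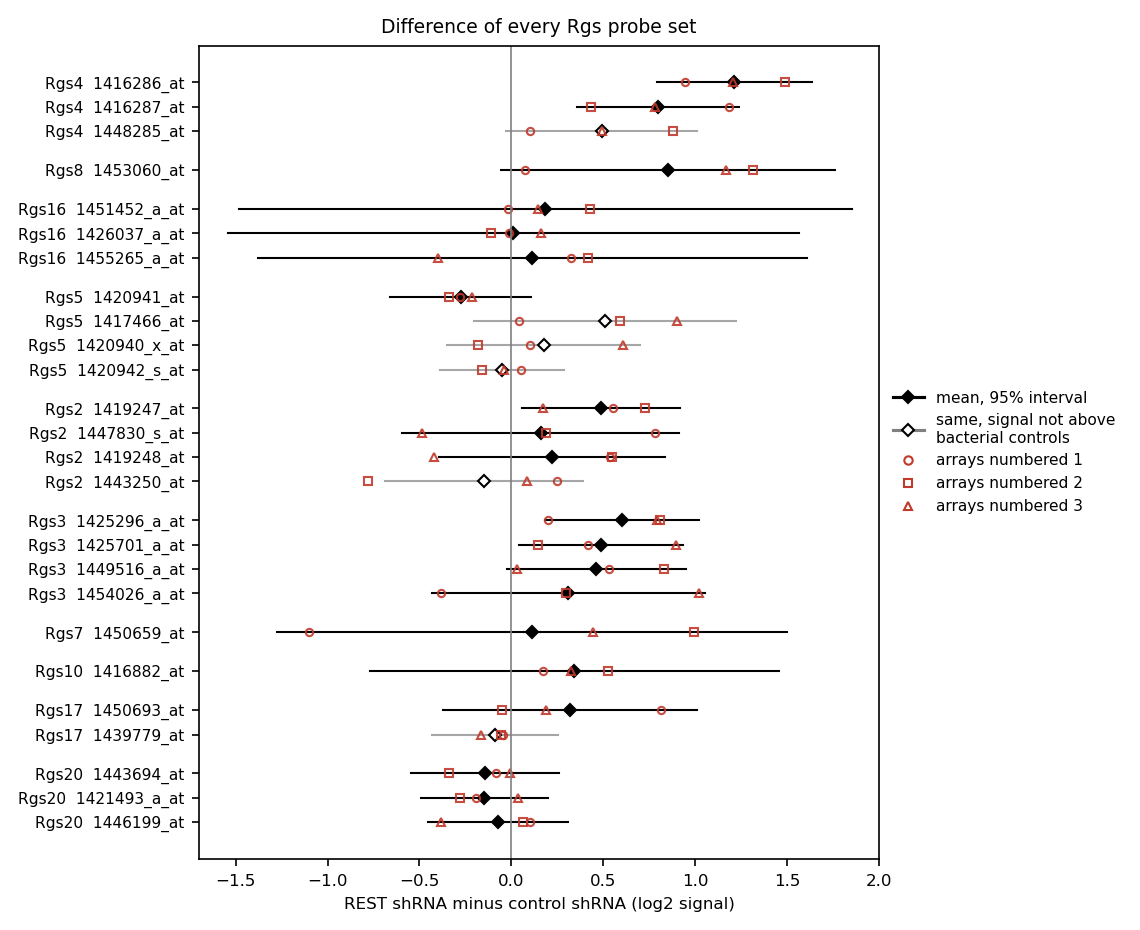
REST shRNA minus control shRNA difference in log2 signal (horizontal axis) of all 26 Rgs probe sets (rows, grouped by gene), with the mean and 95% interval in black, open diamonds and grey lines for the 6 probe sets whose mean was not above the bacterial controls, and red symbols for the difference between arrays of the same number. Every probe set of Rgs4, Rgs3, Rgs8, Rgs16, Rgs7 and Rgs10 has its mean right of 0, while the intervals of Rgs16, Rgs7 and Rgs10 are the widest.

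Set against each paralog within the same arrays, the difference of Rgs4 was larger in all 3 pairs for each of the 9 other genes by brightest probe set. The excess of Rgs4 was 1.49 over Rgs5 (95% interval 0.85 to 2.13), 1.36 over Rgs20 (0.85 to 1.86), 0.73 over Rgs2 (0.09 to 1.37) and 0.61 over Rgs3 (0.18 to 1.04). These 4 intervals, which do not use the pairing, lay above 0. Over Rgs8 the excess was 0.36 (-0.65 to 1.37), with 0.87, 0.17 and 0.04 in pairs 1, 2 and 3. The control arrays of Rgs8 all lay below the bacterial controls, so the size of that excess is not settled. Over Rgs17 it was 0.90 (-0.14 to 1.93), over Rgs10 0.87 (-0.88 to 2.62), over Rgs16 1.03 (-1.19 to 3.24) and over Rgs7 1.10 (-0.86 to 3.06). With the replicate number as a block, 2 residual degrees of freedom are left. The interval was then 0.63 to 1.11 over Rgs10 and 0.89 to 1.17 over Rgs16. In both, the excess of Rgs4 varied little between pairs, at 0.77, 0.96 and 0.88 over Rgs10 and 0.96, 1.06 and 1.06 over Rgs16. The blocked intervals over Rgs3, Rgs5 and Rgs20 also lay above 0, 5 of the 9 in all, while that over Rgs2, -0.07 to 1.53, included 0, as did those over Rgs7, Rgs8 and Rgs17. Rgs4 was chosen for its difference, so these intervals describe the arrays and test nothing. When each gene was instead represented by the average of its probe sets, the excess was 0.37 over Rgs3, 0.74 over Rgs5 and -0.02 over Rgs8.

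**Figure D3:**
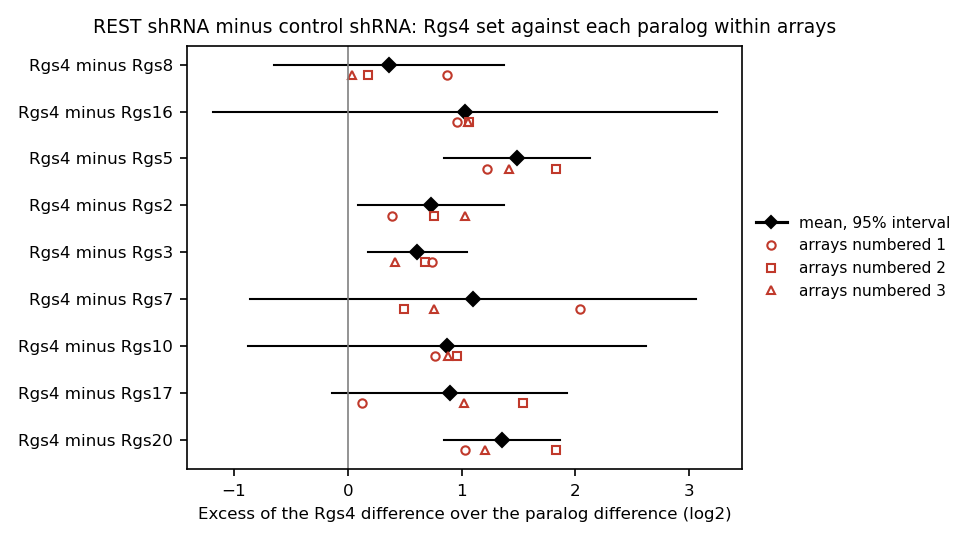
Excess of the Rgs4 difference (REST shRNA minus control shRNA) over that of each paralog, in log2 units on the horizontal axis, from brightest probe sets within arrays. Diamonds and lines give the mean and 95% interval, and red symbols the value for arrays of each number. Every red symbol lies above 0, the nearest being 0.04 for Rgs8 in pair 3 and 0.13 for Rgs17 in pair 1.

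The replicate number separated Rgs16 and Rgs10 far more than the hairpin did. The number accounted for 97.9%, 99.5% and 94.4% of the variation over the 6 arrays on the 3 probe sets of Rgs16, and for 90.9% on Rgs10, beside a median of 43.5% over all probe sets. Among the 20 Rgs probe sets above the bacterial controls the median share was 35.1%, below the 44.8% of all such probe sets. For Rgs4 the share was 2.73% on its brightest probe set, which its choice for the hairpin difference favours, and for Rgs3 it was 2.23%. The mean of the 2 arrays numbered 1, 2 and 3 was 6.86, 7.75 and 9.05 for Rgs16 on 1451452_a_at, a range of 2.19, and 5.75, 6.73 and 5.34 for Rgs10. Rgs16 was highest in the arrays numbered 3 and Rgs10 in those numbered 2, in both groups.

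A limma test of the replicate number over all 45037 probe sets, added after these values had been seen, called 0.00666% of them, and no Rgs probe set (adjusted p = 0.146, 0.150 and 0.251 for Rgs16 and 0.277 for Rgs10). At an unadjusted p under 0.05 it found 4 of the 26 Rgs probe sets, these 3 of Rgs16 and that of Rgs10, against 8.46% of all. The 3 called probe sets were of the immediate early genes Fos and Fosb and of Zfp36, an RNA-destabilizing protein that is induced alongside them, and they were named after their values were seen. Fos read 7.19, 7.03 and 12.05 in REST shRNA samples 1, 2 and 3, against 7.24, 6.75 and 12.16 in the control samples. Both arrays numbered 3 were thus far above the rest for Fos, as for Fosb and Zfp36, whereas Rgs16 also differed between numbers 1 and 2. The signal of Gapdh 3′ minus 5′ probes, a measure of RNA and labelling quality, was 1.93, 1.93 and 2.25 with REST shRNA, against 1.94, 1.72 and 2.87 with control shRNA, and so also highest in the arrays numbered 3. The part of either in the Rgs16 levels was not tested.

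A fit blocked on the replicate number gave a narrower 95% interval of the hairpin difference for Rgs16, -0.28 to 0.65 with the block and -1.48 to 1.85 without it. For Rgs10 it was -0.11 to 0.79 with the block and -0.77 to 1.45 without it. Both blocked intervals lie below the 1.21 of Rgs4. For Rgs8 the blocked interval was 0.15 to 1.55, which includes it, and for Rgs4 itself it was 0.73 to 1.69.

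**Figure D4:**
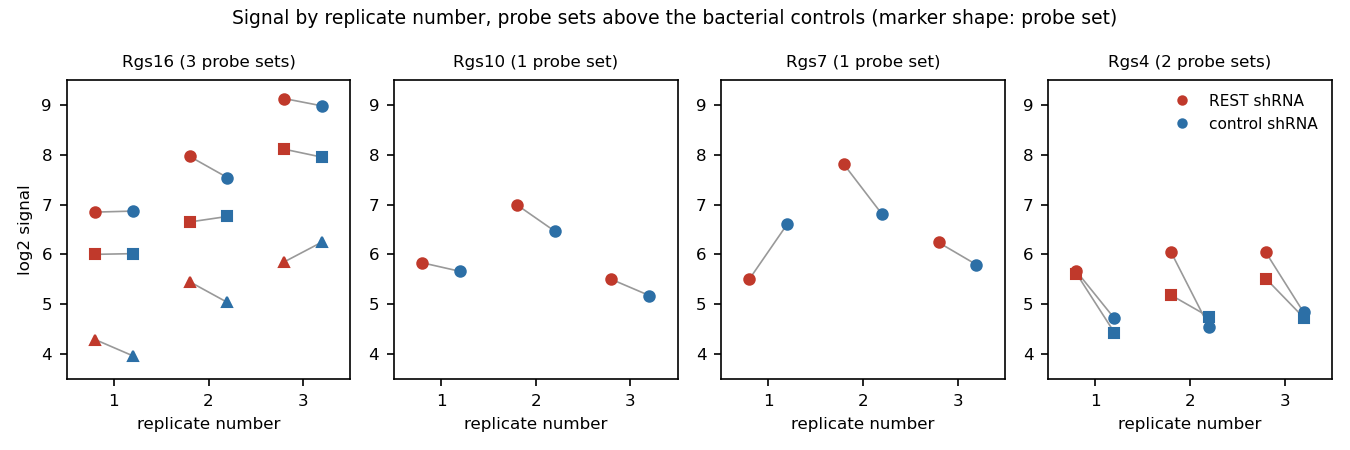
Log2 signal (vertical axis) by replicate number (horizontal axis) for the probe sets of Rgs16, Rgs10, Rgs7 and Rgs4 above the bacterial controls, with REST shRNA arrays in red to the left of the control shRNA arrays in blue and a grey line joining arrays of the same number. Marker shapes tell probe sets of a gene apart. Rgs16 differs by number and hardly by hairpin, and Rgs4 the other way round.

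The 6 genes whose pattern over the 6 arrays was most like that of Rgs4, among 5116 genes with enough signal and spread, were Celsr3, Ap3b2, Plxna2, Hpca, Chga and St8sia3, with Pearson r from 0.966 to 0.991. All of these genes share the gap between the groups of arrays, so r is given as a description. Celsr3, an atypical cadherin of growing axons, read 7.23, 8.08 and 8.02 with REST shRNA, against 6.21, 5.76 and 6.06 with control shRNA, with the smallest gap in pair 1 as on the brightest probe set of Rgs4. Plxna2, a semaphorin receptor, read 7.74, 8.16 and 7.83 with REST shRNA, against 7.04, 6.86 and 6.98 with control shRNA. The differences were 2.33 for the sialyltransferase gene St8sia3, 2.16 for Hpca, which encodes a neuronal calcium sensor, 1.63 for Chga of secretory granules and 1.07 for Ap3b2, a neuronal adaptor subunit. No other Rgs gene was among the 6, but the limit on spread kept out Rgs2, Rgs5 and Rgs20. By brightest probe set, r with Rgs4 was 0.92 for Rgs3, 0.80 for Rgs2, 0.79 for Rgs8 and 0.41 for Rgs17. It was 0.28 for Rgs16, 0.23 for Rgs10, 0.16 for Rgs7, -0.41 for Rgs20 and -0.82 for Rgs5.

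The rest of the G protein pathway was described with 6 lists of 127 genes, 111 of them measured. None of the 111 was called in limma, 3 had an unadjusted p under 0.05, all higher with REST shRNA, and their median difference was 0.11. That share of 2.70% is beside 2.73% of all genes. The list of other family members had 14 measured genes. It held the RGS-domain proteins Axin1 and Axin2, and also Rgs9bp, an anchor of Rgs9 that is not itself an RGS protein. The 14 had a median of 0.07 (0.08 to 0.19 with 1 array left out), with 13 positive beside 57.2% of all genes. Of the 14, 6 were below the bacterial controls. Rgs19, an RZ-group relative, read 7.43, 7.90 and 7.30 with REST shRNA, against 6.78, 7.17 and 7.20 with control shRNA, a difference of 0.50 ± 0.22 (SE). Rgs6, an R7-group relative of Rgs7, differed by 0.60 ± 0.35. Its pairs 1, 2 and 3 differed by 0.07, 0.54 and 1.19, and control array 2, at 3.14, was below background. Rgs11, of the same R7 group and below background, differed by 0.23 ± 0.16. All REST shRNA arrays lay above all control arrays for 4 of the 14, Rgs19, Rgs6 and Rgs11 among them, and below for 0. Over all probe sets these shares were 4.35% and 3.9%. The 4 of 14 is counted by the brightest probe set of each gene, so the units differ and nothing is read from it.

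Among the 15 measured alpha subunits, on which RGS proteins act, the median was 0.21. Gna11, of the Gq class, differed by 0.51 ± 0.20 (SE), Gnao1, the abundant neuronal Go subunit, by 0.42 ± 0.28, and Gnat1 of photoreceptors by -0.37 ± 0.16, under the bacterial controls. The beta and gamma subunits had a median of 0.10 over 16 genes, with Gnb4 at 0.48 ± 0.24, Gng11 at 0.47 ± 0.24 and Gng12 at -0.32 ± 0.16. The effectors, which are adenylyl cyclases, phospholipases, potassium channels and their like, had a median of 0.10 over 23 genes. Of these, the cyclase Adcy8 differed by -0.82 ± 0.47, the channel subunit Kcnj9 by -0.68 ± 0.42 and the phosphodiesterase Pde4a by 0.32 ± 0.21.

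Kinases, arrestins and other modulators had a median of 0.12 over 16 genes. Gprin1, a G protein-binding protein of growing neurites, read 6.75, 7.73 and 7.10 with REST shRNA, against 6.30, 6.53 and 6.10 with control shRNA, a difference of 0.89 ± 0.27 (SE) with no overlap. Grk6 and Arrb2, which desensitize receptors, differed by 0.27 ± 0.19 and 0.25 ± 0.19. The 27 measured receptors had a median of 0.13. The cannabinoid receptor Cnr1 read 5.13, 5.41 and 5.28 with REST shRNA, against 4.26, 4.45 and 4.90 with control shRNA, a difference of 0.74 ± 0.21 (SE), the somatostatin receptor Sstr2 differed by 0.54 ± 0.24, and the dopamine receptor Drd2, below background, by 0.46 ± 0.21. All of these missed the adjusted threshold. The list medians were not stable to 1 array: they were 0.02 for alpha subunits and -0.08 for effectors when REST shRNA array 3 was dropped, 0.00085 for beta and gamma subunits when control array 3 was, and 0.07 for modulators and 0.04 for receptors when REST shRNA array 1 was. Dropping REST shRNA array 2 gave 0.21 for modulators and 0.26 for receptors.

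Neuronal markers also stood apart between the groups. The mean log2 signal of 15 neuronal markers was 8.16 to 8.69 in the REST shRNA arrays, against 7.46 to 7.81 in the control arrays, with no overlap. All 15 were above background, 12 of them read higher on average with REST shRNA, and their median difference was 0.68. Their part in the Rgs4 difference was not tested, and in whole cultures more cells of a type and more RNA per cell cannot be told apart. Markers of neural progenitors averaged 9.85 to 10.07 with REST shRNA, against 10.10 to 10.15 with control shRNA, and all 12 were above background. The progenitor means did not overlap, 2 of the 12 genes were higher with REST shRNA, and their median difference was -0.25. None of the 10 astrocyte markers was higher, and their median difference was -0.36. For astrocyte markers REST shRNA array 2 stood apart, at 7.96, with the other REST shRNA arrays at 9.73 and 9.63, against 9.41 to 9.74 in the control arrays. Oligodendrocyte markers averaged 9.14, 8.26 and 9.62 in REST shRNA arrays 1, 2 and 3, against 8.80 to 9.04 with control shRNA, with Mog under background. REST shRNA array 2 was thus the lowest here too. It also had the lowest mean of all arrays in the beta and gamma, effector, modulator and receptor lists.

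Markers of the cell types known for Rgs5 and Rgs10 had low mean signals, though some were above background. Pericyte and mural markers averaged 3.94 to 4.39 with REST shRNA, against 3.85 to 4.62 with control shRNA. Kcnj8, Abcc9, Higd1b and Anpep, 4 of the 10, were not above the bacterial controls, and the other 6, Pdgfrb, Acta2, Tagln, Myh11, Notch3 and Des, were. Microglial markers averaged 3.10 to 3.20 with REST shRNA, against 2.99 to 3.10 with control shRNA. Of the 10, 6 were below background (Aif1, Itgam, Tmem119, P2ry12, Ptprc and C1qa) and 4 were above it (Cx3cr1, Csf1r, Tyrobp and Cd68). Rgs10 itself lay between 5.18 and 7.00, and the cells it came from were not tested. Endothelial markers averaged 3.20 to 3.38 with REST shRNA, against 3.11 to 3.21 with control shRNA, and 7 of 10 were below background. Meningeal fibroblast markers averaged 3.79 to 4.18 with REST shRNA, against 3.86 to 3.98 with control shRNA. Col3a1, Lum, Aldh1a2 and Twist1 were below background and the other 6 of 10 above it, and Pdgfra of this list is also in the oligodendrocyte list.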

How the data were processed

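The deposited table holds log2 signals per probe set made by the authors. How they corrected background, summarised probes and normalized arrays is not given in the sources used here, and the unit was read from their range, 1.00 to 14.2. They were used without further scaling. Groups and replicate numbers came from the sample titles. Genes were named from the platform annotation, with symbols checked by gene number in RefSeq (GRCm38.p6, 0 changed), for 34958 probe sets with 1 gene, 932 having several and 9211 being unlisted. After leaving out 64 control probe sets, 45037 were fitted in limma 3.58.1 (R 4.3.3, lmFit and eBayes, two-sided, 4 residual degrees of freedom and 2.9 prior ones, Benjamini-Hochberg over all), with group as the sole term. No filter on dim signals was applied. The labels do not say that replicates came from separate cultures, so p-values cover only the scatter among these 6, part of which may be technical.

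A gene is represented by its probe set with the highest mean over the 6 arrays. Genes named were the members, Rest, the 6 genes with the highest Pearson r with Rgs4 among those above the bacterial controls and with at least 0.5 of its SD, and the 3 smallest p-values of each list. Members, lists and rules were chosen with earlier results of these data known. After removing group means, arrays numbered 1, 2 and 3 correlated across groups at 0.117, 0.282 and 0.402, all above 0.1, so the numbers of the titles were taken to pair the arrays, and the replicate block was fitted as an alternative. REST shRNA array 2 also correlated with control array 1, at 0.231. The other alternatives were 2 scalings, a filter on dim probe sets, another variance model, array weights, a fit without probe sets ending in _s_at or _x_at, averaging the probe sets of a gene, and dropping each array in turn. Dropping each pair of same-numbered arrays, and the test of the replicate number, were chosen after seeing the data. The fit was tested on simulated data with known differences. Those arrays were independent and had no effect of the replicate number, so that test does not cover such an effect. Cell type markers, 86 of 87 measured, were summarised as the mean log2 signal per array.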

Additional observations from a re-analysis of the deposited data

How the results depend on the processing

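Under 17 alternatives limma called 0 probe sets each time. The Rgs4 difference of 1.21 was 1.14 to 1.34 with each array left out in turn. Its groups did not overlap on that probe set, so dropping arrays could not turn the sign, and several other alternatives leave a difference unchanged by construction. The Rgs4 difference was 0.83 when probe sets of a gene were averaged, since its other 2 probe sets differed less. The number of probe sets at an unadjusted p under 0.05 was 2561 with array weights and 538 genes with the mean over probe sets, which tests fewer features, and 837 to 2780 with each array left out. With the replicate block it was 1932 and no call changed, and the Rgs4 difference was 1.21, which a block balanced over the groups cannot alter. Without both arrays numbered 1, 2 or 3 the Rgs4 difference was 1.35, 1.07 and 1.22.

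Of the other members, Rgs2, Rgs3, Rgs8, Rgs17 and Rgs20 kept the sign of their difference in all 17. For Rgs2 and Rgs3, whose groups did not overlap on the brightest probe set, dropping arrays could not turn it. The mean over probe sets gave 0.18 for Rgs2. Rgs5 turned to 0.09 with that mean. Rgs7 changed sign in 5 of 17, Rgs16 in 2 and Rgs10 in 1. For Rgs16 and Rgs10 this came only with 1 array left out, which leaves its number in 1 group only. Without both arrays of a number neither gene changed sign. Dim signal limits Rgs5 and Rgs8, and the count of 3 arrays per group limits all. The effector median turned to -0.03 without both arrays numbered 1 and to -0.05 without both numbered 3, where the alpha subunits had -0.01 and the beta and gamma subunits -0.04. The cause was not tested for array weights or the left-out arrays.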
